A study of Homo sapiens with 12 samples.

Results

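The genes described here are 10 genes that extracellular signal-regulated kinase (ERK) is known to induce: the MAP kinase phosphatase genes DUSP4, DUSP5 and DUSP6, the Sprouty genes SPRY2 and SPRY4, the SPRED genes SPRED1 and SPRED2, and the ETS transcription factor genes ETV1, ETV4 and ETV5. They were chosen by name from the 26485 gene symbols of a table of raw read counts. All 10 passed the filter on low counts, which kept 15206 genes. The libraries came from RD cells, an established human line of rhabdomyosarcoma, a soft-tissue tumour with features of developing skeletal muscle. In all groups the cells carried a hairpin that doxycycline switches on and that is directed at NT5E, which encodes the cell-surface enzyme CD73; its 2 versions are titled ish and ish2. The 4 groups were ish with doxycycline (Dox), ish without Dox, ish2 with Dox and ish2 without Dox, with 3 libraries each and 12 in all. Dox was given at 10 ng/mL for 96 h. The labels do not give the hairpin sequences or say whether each line was 1 clone. Because no control hairpin was grown with Dox, effects of the drug, of expressing a hairpin and of lower NT5E cannot be told apart. Nothing in the labels says that the 3 libraries of a group were separate cultures, so p-values measure the spread between these samples, which may be technical.

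ERK is the last kinase of the cascade that runs from receptor tyrosine kinases through RAS, RAF and MEK. It switches on genes whose products turn the same cascade down: DUSP4, DUSP5 and DUSP6 remove phosphate from ERK, Sprouty proteins dampen signalling from receptors to RAS, and SPRED proteins bring the RAS inhibitor neurofibromin to the membrane. ETV1, ETV4 and ETV5 form the PEA3 subfamily of ETS activators, which relay fibroblast growth factor and ERK signals to transcription, and the repressor CIC holds several of these genes down until ERK relieves it. RAS mutations that drive this cascade are common in rhabdomyosarcoma without a PAX fusion.

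Reads in genes numbered 26566603 to 32692207 per library. NT5E, the hairpins' target, was at 1.94, 1.23 and 1.54 CPM in ish with Dox, against 14.9, 17.96 and 17.3 CPM in ish without Dox. Its ish2 libraries had 14.5, 15.2 and 14.1 CPM with Dox, against 24.1, 23.5 and 22.1 CPM without Dox. Levels in CPM are reads per gene normalised for library size, TMM factors included, but the marker sums below use library totals alone. NT5E was thus 10.7-fold lower with Dox in ish and 1.59-fold lower in ish2, and its groups did not overlap in either line. The summed level of 8 muscle markers of RD cells was 2720 to 2870 CPM in ish with Dox and 1780 to 1860 CPM in ish without Dox. It was 1970 to 2000 CPM in ish2 with Dox and 1930 to 1960 CPM in ish2 without Dox, so it moved with the ish effect. MYF5, at no more than 1 read, was the muscle marker too low to test. In the ish comparison 5 of the 7 tested markers were called higher and 1 lower, and in ish2 2 were called higher and 3 lower. Of all tested genes, 39.1% were called higher and 39.5% lower in ish, and 33.9% higher and 31.1% lower in ish2. Epithelial, endothelial and blood markers, 6 genes of each kind, summed to at most 2.18 CPM in any library. No marker was at 0 in every library, but KRT5, KRT14, KRT19 and KDR never passed 1 read. The sums of blood markers also moved with Dox: 0.214 to 0.430 CPM in ish with Dox against 0.450 to 0.908 CPM without, and 1.26 to 1.47 CPM in ish2 with Dox against 0.396 to 0.828 CPM without. Epithelial markers summed to 0.550 to 1.09 CPM in ish with Dox against 1.09 to 1.38 CPM without, and to 1.71 to 2.04 CPM in ish2 with Dox against 0.936 to 1.58 CPM without. Endothelial markers summed to 0.679 to 0.887 CPM in ish with Dox and 1.41 to 1.89 CPM in ish without Dox, and to 1.64 to 2.18 CPM in ish2 with Dox and 1.52 to 1.73 CPM in ish2 without Dox. The part of muscle marker level or of these few reads in the results below was not tested, and in bulk RNA fewer cells of a type and less RNA per cell cannot be told apart.

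With Dox, 9 of the 10 genes fell in ish and DUSP4 rose. ETV4 fell furthest, 14.5-fold, followed by DUSP6, 7.70-fold, and the others that fell did so by 1.54-fold (DUSP5) to 2.76-fold (ETV1). In ish2 the picture was different: 7 genes rose, DUSP5 the most at 3.41-fold and SPRY4 next at 1.89-fold. The other rises were small, from 1.15-fold (SPRY2) to 1.48-fold (SPRED1). SPRED2 fell 1.30-fold and ETV5 1.07-fold, and ETV4 was not called. The summed level of the 10 genes was 789 ± 30.5 CPM in ish with Dox and 2844 ± 50.3 CPM in ish without Dox, and it was 3984 ± 68.1 CPM in ish2 with Dox and 3099 ± 81.8 CPM in ish2 without Dox (mean ± SD, n = 3 libraries each). DUSP6 was the largest part of this sum in each group, as 1411 CPM in ish without Dox and 1858 CPM in ish2 with Dox.

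Calls are edgeR quasi-likelihood tests with Benjamini-Hochberg adjusted p under 0.05 over all 15206 genes. Small changes passed it, because the spread between libraries was small: 39.5% of all tested genes were called lower in ish, beside 9 of 10 here, and 39.1% were called higher, beside DUSP4. In ish2, 33.9% of all genes were called higher, beside 7 of 10 here, and 31.1% lower, beside 2. A call that was also at least 2-fold was rarer. In ish, 7 of the 10 genes were lower by that much, against 10.5% of all genes, and in ish2 DUSP5 alone was higher by that much, against 3.88%. The median log2 fold change of the 10 genes was -1.31 in ish and 0.22 in ish2, beside -0.01 and 0.01 over all genes. The 3 Dox libraries did not overlap the 3 libraries without Dox for 10 of 10 genes in ish, against 80.6% of all genes, and for 9 of 10 in ish2, against 66.6%. An exact two-sided permutation test of 3 libraries against 3 cannot give a p below 0.1, and that was its value for every one of the 19 comparisons without overlap.

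**Figure D1:**
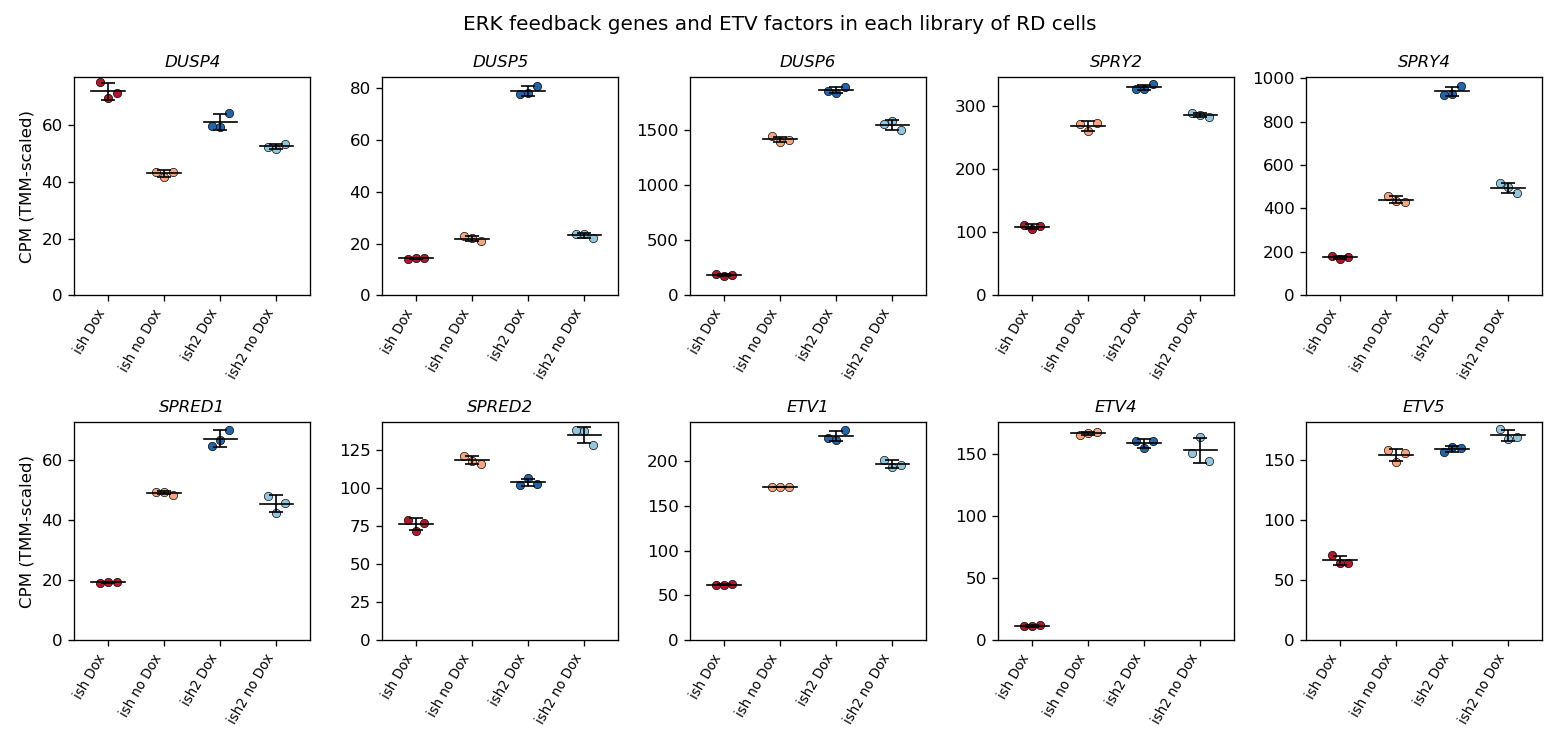
TMM-scaled CPM (y axis from 0, linear) of each of the 10 genes in each library, by group along the x axis; points are libraries, and bars are the mean ± SD of 3 libraries. In the leftmost group, ish with Dox, 9 genes have their lowest points, as ETV4 at 11.2 to 11.97 CPM, whereas DUSP4 has its highest there, at 69.4 to 75.2 CPM.

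Promoters are shown for the strongest DUSP and ETV changes with an entry and for the Sprouty pair, which fell alike in ish and differed in ish2. RefSeq windows on GRCh38.p14, from 250 bases before to 50 bases after an annotated start, were used for 6 of the 10 genes, 14 windows in all. DUSP5, ETV4 and ETV5 had no entry among the windows. DUSP4 was left out and not searched for here. Of the 6 ETV1 and 3 SPRY2 windows, the one with the most kinds of CIC and ETS match is shown, so its matches are a result of that choice. Each window is printed 5′ to 3′ on the minus strand, where all 4 of these genes lie. Capitals mark matches to the CIC octamer (TGAATGAA, TGAATGGA, TCAATGAA or TCAATGGA) or to the ETS core CCGGAA, either strand counted.
DUSP6, chr12:89352452-89352751: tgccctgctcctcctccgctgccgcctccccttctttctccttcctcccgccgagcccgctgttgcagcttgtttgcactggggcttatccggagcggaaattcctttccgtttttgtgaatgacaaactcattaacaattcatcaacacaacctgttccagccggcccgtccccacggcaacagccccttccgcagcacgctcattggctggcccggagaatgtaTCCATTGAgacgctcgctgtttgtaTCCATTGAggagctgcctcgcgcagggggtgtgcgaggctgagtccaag
ETV1, chr7:13991376-13991675: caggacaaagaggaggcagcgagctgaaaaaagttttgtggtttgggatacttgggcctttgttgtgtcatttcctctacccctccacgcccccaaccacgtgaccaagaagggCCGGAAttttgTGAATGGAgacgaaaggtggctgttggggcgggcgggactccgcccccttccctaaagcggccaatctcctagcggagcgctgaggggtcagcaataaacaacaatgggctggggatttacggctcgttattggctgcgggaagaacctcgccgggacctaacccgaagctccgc
SPRY2, chr13:80341077-80341376: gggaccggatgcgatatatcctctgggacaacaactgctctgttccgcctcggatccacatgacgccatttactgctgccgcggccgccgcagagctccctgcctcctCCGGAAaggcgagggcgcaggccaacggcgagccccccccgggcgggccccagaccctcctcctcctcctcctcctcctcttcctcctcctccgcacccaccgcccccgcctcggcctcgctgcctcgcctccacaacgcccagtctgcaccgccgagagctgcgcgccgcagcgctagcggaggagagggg
SPRY4, chr5:142324198-142324497: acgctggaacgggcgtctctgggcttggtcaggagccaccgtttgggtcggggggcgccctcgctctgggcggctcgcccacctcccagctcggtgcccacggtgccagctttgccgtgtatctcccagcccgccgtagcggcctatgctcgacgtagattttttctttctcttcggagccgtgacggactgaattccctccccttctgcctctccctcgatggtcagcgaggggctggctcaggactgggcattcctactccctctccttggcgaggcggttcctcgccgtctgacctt
The DUSP6 window held 2 copies of TCCATTGA, the reverse complement of TCAATGGA, at bases 227 to 234 and 252 to 259 from its 5′ end. The ETV1 window shown held CCGGAA at bases 115 to 120 and TGAATGGA at bases 126 to 133, and the SPRY2 window shown held CCGGAA at bases 109 to 114. Of the other ETV1 windows 2 held the ETS core and 3 held neither motif, and the other 2 SPRY2 windows and the single SPRY4 window held neither. Of 35116 RefSeq promoter windows of the same length, 3.77% held a CIC octamer and 17.2% the ETS core. The AP-1 motif TGANTCA, in 7.71% of all windows, matched at bases 245 to 251 and 285 to 291 of an SPRED2 window (chr2:65366729-65367028), and the single SPRED1 window held no match. The CRE TGACGTCA (1.85% of windows) and the CArG box (1.29%) matched in none of the 14. These matches describe letters and do not mark sites that a factor was measured on.

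The MAP kinase phosphatase genes went in different directions. DUSP6, which encodes the cytoplasmic phosphatase specific to ERK, was at 192, 173 and 185 CPM in ish with Dox, against 1438, 1390 and 1406 CPM in ish without Dox. It was at 1850, 1836 and 1889 CPM in ish2 with Dox, against 1552, 1576 and 1493 CPM in ish2 without Dox. The ish libraries with Dox lay far below all 9 others, and the ish2 libraries with Dox lay above all 9 others. DUSP6 fell by 2.95 on the log2 scale in ish (SE 0.03, edgeR adjusted p = 2.88e-37) and rose by 0.27 in ish2 (SE 0.03, adjusted p = 3.04e-10).

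DUSP5, the nuclear phosphatase specific to ERK, was at 13.9, 14.3 and 14.5 CPM in ish with Dox, against 22.8, 22.1 and 21.1 CPM in ish without Dox. In ish2 it was at 77.7, 78.4 and 81.0 CPM with Dox, against 23.8, 23.7 and 22.0 CPM without Dox. The lines overlapped without Dox and stood far apart with it. DUSP5 was 1.54-fold lower with Dox in ish (log2 fold change -0.62, SE 0.05, adjusted p = 3.93e-13) and 3.41-fold higher with Dox in ish2 (log2 fold change 1.77, SE 0.04, adjusted p = 9.85e-29). The ish2 rise placed DUSP5 133rd from the top of 15206 genes.

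DUSP4, a nuclear phosphatase that acts on ERK and on other MAP kinases, was the gene that rose in both lines. It was at 75.2, 69.4 and 71.3 CPM in ish with Dox, against 43.6, 41.6 and 43.6 CPM in ish without Dox. DUSP4 in ish2 had 59.8, 59.4 and 64.3 CPM with Dox, against 52.5, 51.7 and 53.3 CPM without Dox. The groups did not overlap in either line, and the rise was 1.68-fold in ish and 1.17-fold in ish2. Of all genes, 13.8% were called higher in both lines. Because DUSP6 held most of the reads, the summed level of the 3 phosphatase genes followed it, at 269 ± 12.7 CPM in ish with Dox and 1476 ± 25.5 CPM in ish without Dox.

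The Sprouty genes fell together in ish by a similar amount and rose by unlike amounts in ish2. SPRY4 was at 182, 167 and 177 CPM in ish with Dox, against 458, 434 and 428 CPM in ish without Dox. The ish2 values were 924, 930 and 965 CPM with Dox, against 516, 501 and 471 CPM without Dox. Its ish2 libraries with Dox were the highest of the 12 and its ish libraries with Dox the lowest, with no overlap. SPRY4 fell by 1.33 on the log2 scale in ish (SE 0.04, adjusted p = 2.83e-21) and rose by 0.92 in ish2 (SE 0.03, adjusted p = 7.83e-18).

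SPRY2 was at 112, 105 and 110.1 CPM in ish with Dox, against 273, 260.4 and 274 CPM in ish without Dox. SPRY2 in ish2 had 328, 327 and 335 CPM with Dox, against 289.7, 286 and 282 CPM without Dox. The order of the 4 groups was that of SPRY4, with a smaller step in ish2. SPRY2 fell by 1.30 on the log2 scale in ish (2.46-fold) and rose by 0.21 in ish2 (1.15-fold, adjusted p = 1.87e-08).

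The SPRED genes parted in ish2. SPRED1, whose protein anchors neurofibromin, was at 19.1, 19.4 and 19.6 CPM in ish with Dox, against 49.4, 49.6 and 48.6 CPM in ish without Dox. The ish2 levels were 64.7, 66.8 and 70.2 CPM with Dox, against 48.3, 42.5 and 45.9 CPM without Dox. SPRED1 thus lay lowest in ish with Dox and highest in ish2 with Dox. It fell by 1.35 on the log2 scale in ish and rose by 0.56 in ish2 (SE 0.04, adjusted p = 1.25e-14). SPRED2, its close relative with the same role, was at 79.3, 71.6 and 77.2 CPM in ish with Dox, against 121, 118 and 116 CPM in ish without Dox. In ish2 it was at 102, 106 and 103 CPM with Dox, against 138, 137 and 128 CPM without Dox. SPRED2 was lower with Dox in both lines without overlap, 1.55-fold in ish and 1.30-fold in ish2 (log2 fold change -0.38, SE 0.03, adjusted p = 4.58e-12). A call of lower in both lines was made for 14.1% of all genes.

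Of the ETV factors, ETV4 changed most in ish and was the only one of the 10 genes not called in ish2. It was at 11.2, 11.3 and 11.97 CPM in ish with Dox, against 166, 167 and 168 CPM in ish without Dox. ETV4 in ish2 had 161, 155 and 161 CPM with Dox, against 151, 164 and 145 CPM without Dox. The ish libraries with Dox stood an order of magnitude below the other 9, whereas the ish2 groups overlapped. ETV4 fell by 3.86 on the log2 scale in ish (SE 0.05, adjusted p = 1.55e-36), which placed it 24th from the bottom of 15206 genes, with DUSP6 79th. Its log2 fold change in ish2 was 0.05 (95% interval -0.02 to 0.12, adjusted p = 0.176), and without the third ish2 library without Dox the value was -0.01 (adjusted p = 0.897). Without the second ish2 library without Dox it was 0.08, and ETV4 was then called higher (adjusted p = 0.0161).

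ETV1 was at 61.8, 61.6 and 62.4 CPM in ish with Dox, against 171, 171 and 171 CPM in ish without Dox. The ish2 libraries had 226, 224 and 235 CPM with Dox, against 202, 194 and 195 CPM without Dox. Its 4 groups lay in the same order as those of SPRY2, and it fell by 1.47 on the log2 scale in ish and rose by 0.21 in ish2. ETV5 was at 70.4, 64.1 and 64.3 CPM in ish with Dox, against 158, 148 and 155 CPM in ish without Dox. In ish2 it was at 156, 160.3 and 159.6 CPM with Dox, against 175, 167 and 169 CPM without Dox. It was lower with Dox in both lines, 2.32-fold in ish, but only 1.07-fold in ish2 (log2 fold change -0.10, SE 0.03, adjusted p = 0.00418), where its groups were close but did not overlap. The largest adjusted p of the 10 genes was 3.93e-13 in ish, and 0.00418 among the 9 called in ish2.

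**Figure D2:**
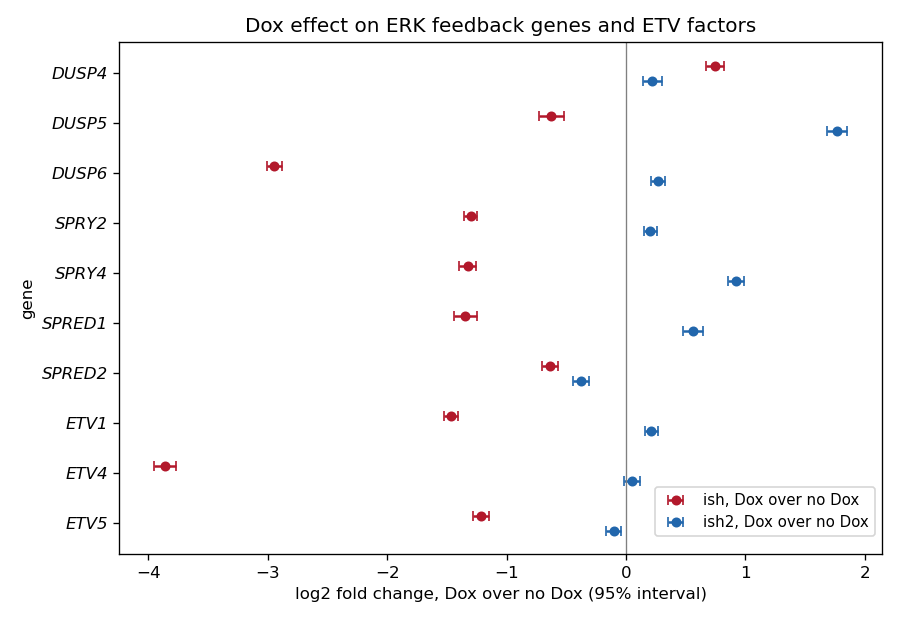
Log2 fold change of Dox over no Dox (x axis) for each of the 10 genes (y axis), in ish (upper point of each pair) and ish2 (lower point); horizontal bars are 95% intervals from the fit. In ish the points run from -3.86 for ETV4 to 0.74 for DUSP4, and in ish2 from -0.38 for SPRED2 to 1.77 for DUSP5.

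The Dox effect differed between ish and ish2 for all 10 genes when the difference itself was tested, where 72.6% of all genes were called either way. For 9 of them the ish effect was the lower one, against 37.4% of all genes, and for 8 by at least 2-fold, against 12.9%. The difference, ish effect minus ish2 effect on the log2 scale, was -3.91 for ETV4 and -3.22 for DUSP6, then -2.39 for DUSP5 and -2.25 for SPRY4. SPRED2 had the smallest, -0.26, and DUSP4 the only positive one, 0.52, where 35.2% of all genes were called higher. For 6 genes (DUSP5, DUSP6, SPRY2, SPRY4, SPRED1 and ETV1) the call was lower in ish and higher in ish2, a combination seen in 14.1% of all genes.

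Without Dox the lines were much closer, although most of the genes differed. Of the 10 genes, 7 were called lower in ish than in ish2 (13.7% of all genes), SPRED1 and ETV4 were called higher (12.4%) and DUSP5 was not called. The log2 fold changes of ish over ish2 without Dox ran from -0.29 for DUSP4 to 0.12 for ETV4, which are small beside the Dox effects in ish. They were not all small beside those in ish2. In size they exceeded the ish2 Dox effect for DUSP4 (-0.29 against 0.22), ETV4 (0.12 against 0.05) and ETV5 (-0.15 against -0.10). ETV1 was near its own (-0.20 against 0.21), and for the other genes the ish2 Dox effect was clearly the larger. Without Dox, DUSP5 had 22.8, 22.1 and 21.1 CPM in ish and 23.8, 23.7 and 22.0 CPM in ish2, which overlap (log2 fold change -0.08, 95% interval -0.18 to 0.02, adjusted p = 0.26). The SPRED1 call was close to the threshold (log2 fold change 0.11, adjusted p = 0.0473) and was lost with DESeq2's size factors in edgeR (adjusted p = 0.0783), with DESeq2 (adjusted p = 0.164) and with limma-voom (adjusted p = 0.05). It was kept with upper quartile factors and with library totals alone. It was also lost without ish Dox replicate 1 or 3, any ish replicate without Dox, ish2 Dox replicate 2 or ish2 no Dox replicate 2 or 3, each left out alone (adjusted p = 0.0526 to 0.328). SPRY2 was no longer called without ish no Dox replicate 2 (adjusted p = 0.115), nor without ish2 no Dox replicate 1 (adjusted p = 0.0536), and ETV4 was not called without ish2 no Dox replicate 3 (adjusted p = 0.056). With Dox, 9 genes were lower in ish than in ish2 (41% of all genes), ETV4 by 13.8-fold, DUSP6 by 10.1-fold, DUSP5 by 5.55-fold and SPRY4 by 5.35-fold, and DUSP4 was higher (40.3%). These comparisons share libraries with the Dox effects above.

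Per length of exon, the order of the genes changed with Dox. DUSP6 was the highest in each group, at 40.3 CPM per kb of exon in ish with Dox, 310 in ish without Dox, 409 in ish2 with Dox and 339 in ish2 without Dox. SPRY2 and SPRY4 followed, with levels that overlapped in ish with Dox (35.9 and 35.3 CPM per kb), in ish without Dox (88.5 and 88.4) and in ish2 without Dox (94.2 and 99.7). In ish2 with Dox they parted, SPRY4 at 189 and SPRY2 at 109 CPM per kb. ETV4 stood next, above ETV5, SPRED2 and ETV1, in ish without Dox, at 59.5 CPM per kb. In ish with Dox it was at 4.10, where of the 10 genes only SPRED1 was lower (2.49). The level of DUSP4 was the lowest of the 10 in ish without Dox, at 5.92 CPM per kb, and in ish with Dox, at 9.92, it stood above ETV1, DUSP5, ETV4 and SPRED1. DUSP5 and ETV1 overlapped in ish2 with Dox, at 30.9 and 29.6 CPM per kb, as did SPRED1 and DUSP4, at 8.64 and 8.43.

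**Figure D3:**
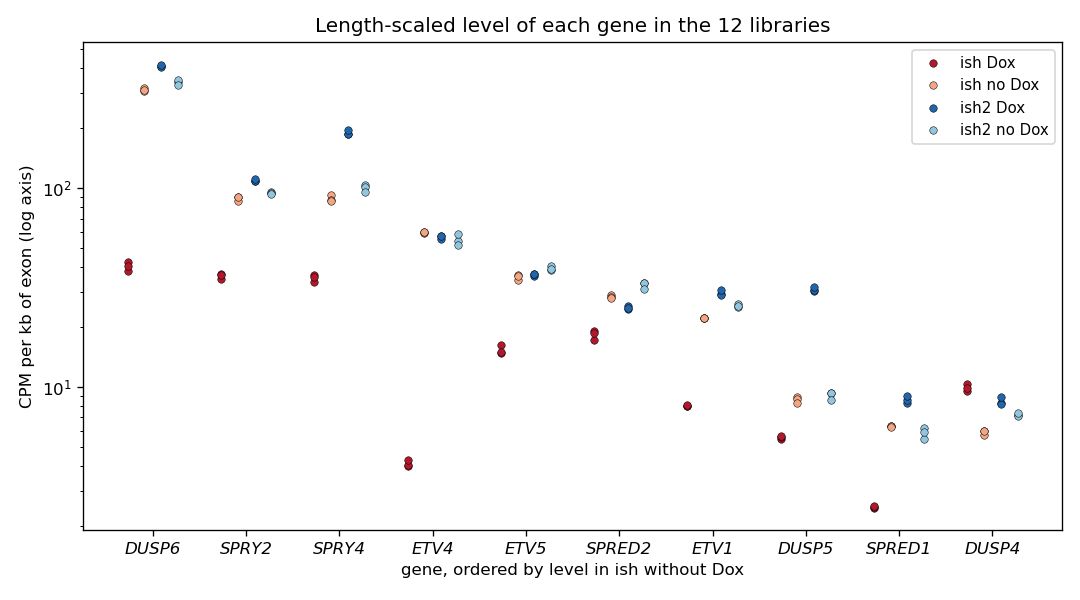
CPM per kb of exon (y axis, log scale) of each gene (x axis, ordered by level in ish without Dox) in each of the 12 libraries, coloured by group. In ish with Dox the DUSP6 points sit near 40.3 CPM per kb, just above those of SPRY2 and SPRY4, and ETV4 sits near 4.10.

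The 12 libraries fall into 4 groups and so hold few independent points. In log2 CPM over them, DUSP6, SPRY2, ETV1, ETV4 and ETV5 followed each other closely. Pearson's r was 0.998 for DUSP6 with SPRY2, 0.998 for SPRY2 with ETV1 and 0.992 for DUSP6 with ETV4. ETV5 had 0.989 with DUSP6 and with ETV4, and the lowest r among these genes was 0.976, for ETV1 with ETV4. SPRED1 was near them, with r of 0.928 (ETV5) to 0.979 (SPRY2). DUSP5 went with SPRY4 at 0.906 and with SPRED2 at 0.24, and DUSP4 had r between -0.782 and -0.003 with the other 9. These values describe the 12 libraries, which share their lines and treatments. Nearest genes outside the 10 were sought only among those that passed a floor on mean log2 CPM and carried an official symbol. Among them the gene with the highest r was C18orf54 for DUSP6 (0.9996), HS2ST1 for SPRY2 (0.9998), DEPDC1 for ETV1 (0.999) and YAP1 for ETV4 (0.9992). YAP1, a transcriptional co-activator of the Hippo pathway, had log2 fold changes of -1.98 in ish and 0.05 in ish2. SLC20A1, a sodium-phosphate transporter, was nearest to DUSP5 (0.9988), with log2 fold changes of -0.41 in ish and 1.29 in ish2. For the others they were MTMR1 for DUSP4 (0.9907), AVL9 for SPRY4 (0.9983), CLMN for SPRED1 (0.9974), ADAT1 for SPRED2 (0.9911) and UXS1 for ETV5 (0.9979).

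Other genes that ERK is known to induce moved in the same direction as most of the 10. For the counts of all lists that follow, 39.5% of all genes were called lower and 39.1% higher in ish, and 31.1% lower and 33.9% higher in ish2. Of 20 tested among 24 such genes, 18 fell and 1 rose in ish (median log2 fold change -1.56), and 15 rose and 2 fell in ish2 (median 0.64). In ish, EGR1, an immediate early transcription factor, was at 43.6 ± 1.21 CPM with Dox and 121 ± 3.71 CPM without Dox, and HMGA2, a chromatin factor of embryonic cells, at 420 ± 1.79 CPM with Dox and 1290 ± 18.2 CPM without Dox. In ish2 EGR1 was at 213 ± 2.86 CPM with Dox and 135 ± 5.41 CPM without Dox, and PLAUR, the urokinase receptor, at 124 ± 2.23 CPM with Dox and 34.8 ± 1.58 CPM without Dox. HMGA2 was not called in ish2 (log2 fold change -0.04, adjusted p = 0.103). All medians stand beside -0.01 in ish and 0.01 in ish2 over all genes.

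Among 8 other feedback inhibitors, 4 fell and 2 rose in ish (median -0.75), where 39.5% of all genes fell, and 6 rose and 1 fell in ish2 (median 0.39). SPRY1, another Sprouty gene, fell by 1.42 on the log2 scale in ish and rose by 0.35 in ish2, and SPRED3 fell by 2.54 and rose by 0.66. ERRFI1, an inhibitor of the epidermal growth factor receptor, fell by 2.08 in ish and rose by 0.10 in ish2. In contrast LRIG1, which lowers the levels of such receptors, rose by 1.12 in ish and fell by 0.54 in ish2. The 7 other MAP kinase phosphatases were mixed, with 3 higher and 2 lower in ish (median -0.07) and 4 higher and 1 lower in ish2 (median 0.21). The 2 that fell in ish were DUSP9, by 2.9, and DUSP2, by 0.95. In ish2 DUSP9 fell by 1.49 and DUSP2 rose by 1.03. DUSP16, a phosphatase of JNK and p38, rose by 0.84 in ish and by 0.21 in ish2. DUSP10, of the same class, rose by 1.01 in ish2 but was not called in ish (log2 fold change -0.07, adjusted p = 0.146).

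Of 20 genes of the RAS to ERK cascade, 10 rose and 9 fell in ish (median 0.06), near the shares of all genes. In ish2, 14 rose and 2 fell (median 0.14), beside 33.9% and 31.1% of all genes. MAP2K1, which encodes the ERK kinase MEK1, was at 130 ± 3.77 CPM in ish with Dox and 676 ± 6.45 CPM in ish without Dox, and it fell by 2.38 on the log2 scale (adjusted p = 9.02e-38). It was at 1010 ± 16.2 CPM in ish2 with Dox and 681 ± 30.5 CPM in ish2 without Dox, a rise of 0.57. NRAS, a RAS gene that is mutated in RD cells, fell by 1.97 in ish and rose by 0.54 in ish2. SHC1, an adaptor between receptors and RAS, fell in both lines, by 1.53 in ish and by 0.56 in ish2. Of 16 tested receptors and ligands that feed ERK, 10 fell and 3 rose in ish (median -0.44), and 6 fell and 6 rose in ish2 (median -0.17). FGFR4, a receptor tyrosine kinase of muscle progenitors for fibroblast growth factors, fell by 1.02 in ish and by 0.64 in ish2, and FGFR1 by 0.56 and 1.09. FGF1, a ligand of both, fell by 2.29 in ish and rose by 2.35 in ish2. Among those that rose in ish, the ligand gene PDGFC rose by 1.56 and was not called in ish2 (log2 fold change 0.04, adjusted p = 0.561). The receptor gene ERBB3 rose by 1.77 in ish and fell by 1.585 in ish2.

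Repressors of the ETV genes and parts of the ligase that degrades ETV proteins did not move one way. Of 8, 3 rose and 4 fell in ish (median -0.09), and 5 rose and 2 fell in ish2 (median 0.21). CIC, the repressor whose octamer is marked above, was at 106 ± 4.32 CPM in ish with Dox and 88.2 ± 2.44 CPM in ish without Dox, a rise of 0.26, and was not called in ish2 (log2 fold change -0.05, adjusted p = 0.162). ERF, an ETS repressor that ERK inactivates, fell by 1.02 in ish and by 0.42 in ish2. COP1, a ubiquitin ligase of ETV proteins, rose by 0.63 in ish and by 0.15 in ish2. Of 12 tested among 19 other ETS factors, 7 fell and 3 rose in ish (median -0.21), and 4 fell and 5 rose in ish2 (median -0.07). ETV6, an ETS repressor, fell by 0.73 in ish and rose by 0.22 in ish2, and ETS2 fell by 0.92 in ish and rose by 0.61 in ish2. The lists were drawn up with earlier results of these data known, so their counts are descriptions.

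**Figure D4:**
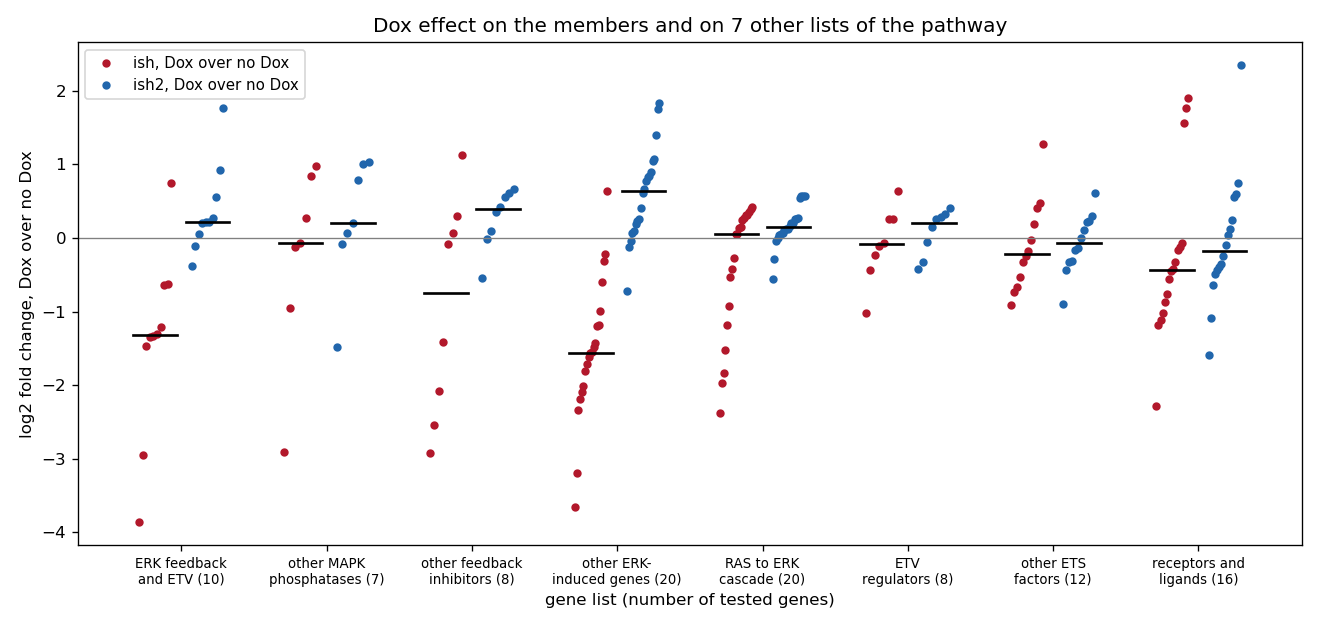
Log2 fold change of Dox over no Dox (y axis) for each tested gene of 8 lists (x axis, number of genes in brackets), in ish (left of each pair) and ish2 (right); black lines are medians. The medians of the ERK feedback and ETV genes are -1.31 in ish and 0.22 in ish2, those of the other ERK-induced genes -1.56 and 0.64, and those of the other 6 lists lie between -0.75 and 0.39.

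On GRCh38, in GENCODE 29, the phosphatase genes lie at 29333064 to 29350668 of chromosome 8 (DUSP4, minus strand), 110497838 to 110511544 of chromosome 10 (DUSP5, plus) and 89347232 to 89353271 of chromosome 12 (DUSP6, minus). SPRY2 lies at 80335976 to 80340951 of chromosome 13 and SPRY4 at 142310427 to 142326455 of chromosome 5, both minus. SPRED1 lies at 38252326 to 38357249 of chromosome 15 (plus) and SPRED2 at 65310851 to 65432637 of chromosome 2 (minus). ETV1 lies at 13891228 to 13991425 of chromosome 7, ETV4 at 43527844 to 43579620 of chromosome 17 and ETV5 at 186046308 to 186110318 of chromosome 3, all minus. DUSP6, SPRY4, ETV4 and ETV5 overlap a gene on the other strand. On its own strand ETV5 overlaps DGKG and a small RNA, and SPRED2 overlaps the intronic transcript AC012370.1. The kit kept strand, but which strand setting the authors counted with is not given, so reads could be shared. DHX8, opposite ETV4, had log2 fold changes of -0.07 in ish and -0.38 in ish2. SPRY4-IT1, by its name an intronic transcript of SPRY4, had log2 fold changes of -1.64 in ish and 0.40 in ish2, the same directions as SPRY4, and never passed 223 reads. DGKG never passed 42 reads.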

How the data were processed

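RNA of 12 libraries of RD cells was measured by stranded mRNA sequencing, 75-bp paired-end per the labels' protocols. The authors deposited raw counts per gene symbol, with no normalization. Per the submitters' processing notes, GRCh38, featureCounts, Subread 1.6.3, STAR 2.7.3a and Trim Galore 0.6.4 were used, in roles they do not state; no annotation is named. Groups came from the titles and the matching column headers, where Sh1 was taken as ish because Sh2 matches ish2. The table's 5 special rows, 21.0% to 24.4% of reads, stayed out.

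From these counts, filterByExpr kept 15206 genes and left out 11279. One edgeR 4.0.16 quasi-likelihood fit (R 4.3.3, TMM) of 4 group means gave 5 contrasts, adjusted by Benjamini-Hochberg over all tested genes and called under 0.05. Its common dispersion of 0.000596 equals a coefficient of variation of 2.44%. Replicates differed by more than counting noise (chi-square over degrees of freedom 1.34 to 4.22), and none was a duplicate. SE and intervals are back-calculated from the F statistic and are approximate. CPM per kb divides by the exon union of GENCODE 29. Correlations use log2 CPM with a prior count of 2.

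The genes and the lists were chosen with earlier results of these data known. Besides the 10 genes, NT5E and the cell type markers, list genes were named by a rule. It took at most 4 per list and contrast, by smallest adjusted p, plus the nearest gene by correlation. Others were named only where the text contrasts the lines. Alternatives were other scalings and filters, DESeq2 1.42.0, limma-voom 3.58.1, the replicate number as a block and leaving out each library. The fit was tested on simulated data.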

Additional observations from a re-analysis of the deposited data

Results flagged for a closer look

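The Dox effect of all 10 genes differed between ish and ish2 by the interaction test of the edgeR fit, over 3 libraries in each of the 4 groups. As ish effect minus ish2 effect on the log2 scale, the difference was -3.91 for ETV4 (adjusted p = 1.78e-33), -3.22 for DUSP6 (adjusted p = 1.82e-34), -2.39 for DUSP5 (adjusted p = 4.64e-27) and -2.25 for SPRY4 (adjusted p = 5.85e-23). It was -1.91 for SPRED1 (adjusted p = 3.4e-25), -1.68 for ETV1 (adjusted p = 1.83e-29), -1.51 for SPRY2 (adjusted p = 2.67e-28) and -1.11 for ETV5 (adjusted p = 6.67e-22). The smallest were 0.523 for DUSP4 (adjusted p = 9.13e-11) and -0.258 for SPRED2 (adjusted p = 1.16e-05). Of all 15206 genes, 72.6% were called in this test. NT5E itself, at 1.57 CPM in ish with Dox and 14.6 CPM in ish2 with Dox, moved with the difference, and its part in it was not tested.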

How the results depend on the processing

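Leaving aside ETV4 in ish2, each of the 10 genes kept its direction and its call in both Dox effects, in their difference and between the lines with Dox, under every alternative that was run. The log2 fold change of ETV4 in ish ran from -3.90 to -3.85 and that of DUSP5 in ish2 from 1.72 to 1.78. ETV4 in ish2 ran from -0.005241 (adjusted p = 0.897, without ish2 no Dox replicate 3) to 0.08486 (adjusted p = 0.0161, without ish2 no Dox replicate 2). In the comparison of ish with ish2 without Dox, 2 of the 10 genes were called higher; this was 1 with DESeq2's size factors in edgeR, 1 with DESeq2, 1 with limma-voom and 0 to 2 when a library was left out. All genes called higher there numbered 1886, and 1214 with DESeq2. The cause was not tested. Like-numbered libraries did not deviate together (correlations of residuals -0.0798 to 0.0295). With the replicate number as a block, 5880 genes were called higher and 5941 lower in ish, 5069 and 4626 in ish2, and 5267 and 5624 for the difference, and the calls among the 10 genes numbered as before. The block could not be fitted between lines. Among the 10 genes the lowest count behind a value was that of ETV4 in ish with Dox, 340 reads, so counting error was small for them. NT5E had as few as 37 reads in ish with Dox. Intervals cover only the spread between these libraries.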
